A study of Mus musculus with 2 samples.

Results

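Some stretches of the mouse genome held H2AZ peaks close together, and these crowded stretches are the subject here. The genome was cut into fixed windows of 100 kb counted from position 1 of each chromosome, each peak was placed in a window by its midpoint, and the peaks in windows with 6 or more peaks were taken. This gave 2233 peaks, 10.4% of the 21546 used, in 321 windows, which were 2.95% of the 10896 windows with at least 1 peak. They are called dense windows below. Because the windows were chosen by their number of peaks, that number and the spacing of the peaks are a description of the choice and not a finding.

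The peaks mark where H2AZ, a variant of histone H2A, was enriched by chromatin immunoprecipitation with sequencing (ChIP-seq). The cells were neural progenitor cells from C57BL/6 mice, taken from embryonic brain at E13 (embryonic day 13). 1 library was made from the H2AZ immunoprecipitate and another from input, the chromatin DNA of the same kind of cells, strain and age without immunoprecipitation. The values used were 1 list of peaks with a position and a score for each, the score being the authors' own value per peak in a unit the list does not name. Each group had 1 library, so no value has a replicate, no test was made, and read depth is unknown. Intervals are 95% intervals, exact (Clopper-Pearson) for shares and from binomial order statistics for medians, and they cover counting error only. Peaks of a window are neighbours and not independent replicates.

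H2AZ takes the place of the canonical histone H2A in some nucleosomes. The SRCAP and TIP60 remodelling complexes place it in chromatin, and ANP32E and the INO80 complex have been described as removing it. It is best known from the nucleosomes that flank transcription start sites with many CpG dinucleotides, and from enhancers. Neural progenitor cells of the embryonic cortex divide, renew themselves and give rise to neurons and later glia.

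Promoters from the windows with the most peaks show the kind of sequence that lay under many of these peaks. Each runs from 250 bases before to 50 bases after the gene's start in RefSeq (GRCm38.p6), is written 5′ to 3′ on the gene's strand, and has its CpG dinucleotides in capitals. Borcs6, Abt1, Dnajc4 and Junb had their start under a peak. Tulp2, chosen after its values were seen, lay in a dense window without a peak within 1 kb of its ends or of its listed start, which is inside the outermost span of the gene.
Borcs6 (subunit of a lysosome-positioning complex), chr11:69059525-69059824, plus strand: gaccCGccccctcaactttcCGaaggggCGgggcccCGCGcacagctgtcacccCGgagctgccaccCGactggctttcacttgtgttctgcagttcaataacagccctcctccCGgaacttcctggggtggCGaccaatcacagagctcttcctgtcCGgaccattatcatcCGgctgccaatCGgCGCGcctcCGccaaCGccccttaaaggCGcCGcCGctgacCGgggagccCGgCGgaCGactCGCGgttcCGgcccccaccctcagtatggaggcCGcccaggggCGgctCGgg
Abt1 (activator of basal transcription), chr13:23423817-23424116, minus strand: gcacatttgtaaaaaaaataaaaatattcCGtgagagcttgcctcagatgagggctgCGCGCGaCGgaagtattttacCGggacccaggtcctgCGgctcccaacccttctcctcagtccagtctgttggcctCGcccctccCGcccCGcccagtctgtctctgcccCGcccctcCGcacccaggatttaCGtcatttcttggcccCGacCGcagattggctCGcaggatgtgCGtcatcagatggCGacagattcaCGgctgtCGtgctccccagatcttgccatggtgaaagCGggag
Dnajc4 (J-domain co-chaperone family), chr19:6992469-6992768, minus strand: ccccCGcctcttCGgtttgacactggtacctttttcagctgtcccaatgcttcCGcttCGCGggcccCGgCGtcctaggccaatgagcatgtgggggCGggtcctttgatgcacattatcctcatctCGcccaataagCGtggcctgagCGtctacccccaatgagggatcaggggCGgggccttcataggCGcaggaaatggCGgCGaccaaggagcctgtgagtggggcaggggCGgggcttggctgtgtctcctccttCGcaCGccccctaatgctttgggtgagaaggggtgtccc
Junb (transcription factor of the AP-1 family), chr8:84978699-84978998, minus strand: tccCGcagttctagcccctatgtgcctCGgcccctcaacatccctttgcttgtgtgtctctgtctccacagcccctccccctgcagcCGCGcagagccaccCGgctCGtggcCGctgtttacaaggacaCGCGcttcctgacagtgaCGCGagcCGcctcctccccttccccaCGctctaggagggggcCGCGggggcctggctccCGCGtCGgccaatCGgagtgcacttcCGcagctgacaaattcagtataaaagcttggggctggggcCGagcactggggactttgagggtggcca
Tulp2 (tubby-like protein family), chr7:45513456-45513755, plus strand: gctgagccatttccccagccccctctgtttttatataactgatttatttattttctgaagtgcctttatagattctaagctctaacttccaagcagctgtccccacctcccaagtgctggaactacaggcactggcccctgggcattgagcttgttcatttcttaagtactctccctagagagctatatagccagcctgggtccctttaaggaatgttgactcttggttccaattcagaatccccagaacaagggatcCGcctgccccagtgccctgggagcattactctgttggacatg
The promoter of Borcs6 held 29 CpG dinucleotides and that of Tulp2 held 1. Abt1 and Junb each held 21, and Dnajc4 held 18. Borcs6 and Tulp2 lay outside the quartiles of their sets. Dense-window promoters with the start under a peak held a median of 19 (quartiles 13 and 26). Those without a peak over the start held a median of 6 (quartiles 3 and 9.25).

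Dense windows were rich in genes. They held a median of 5 protein-coding genes (95% interval 5 to 6, 321 windows), counted as genes with either end in the window, against 4 in windows with 5 peaks, 3 with 4 peaks and 1 with a single peak. In all, 1707 protein-coding genes had an end in a dense window, 7.84% of the 21770 in the gene table. Crowding of peaks and crowding of genes did not always go together. Of the 321 dense windows, 165 had fewer than 6 protein-coding genes and 53 had 2 or fewer. Of 564 windows with 6 or more protein-coding genes, 156 were dense (27.7%) and 114 held no peak (20.2%). The 114 gene-rich windows without a peak held an end of 805 genes, among them 255 olfactory receptor genes and 37 protocadherin genes. The gene table held 1109 olfactory receptor genes in all. Another 36 of the 805 had symbols starting with Krt, a prefix of keratin and keratin-associated protein genes, which were not told apart. Olfactory receptors are the odorant receptors of the nasal epithelium, and keratins are filament proteins of epithelia.

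The threshold of 6 cut through a falling distribution. Just outside it lay 357 windows with 5 peaks, and just inside it 155 windows with 6. A further 90 windows held 7 peaks, 43 held 8, 16 held 9 and 10 held 10, while 3 held 11, 2 held 12 and 2 held 14. Peaks covered 4.40 Mb of the 32.1 Mb of dense windows (13.7%). The median gap from a peak to its nearest neighbour was 4899 bp in dense windows and 23853 bp elsewhere.

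More of the dense-window peaks lay at a gene end than of the other peaks. A peak was counted at a gene end when at least 1 bp of it lay within 1 kb of the outermost start or end of a protein-coding gene, inside or outside the gene. Of the 2233 dense-window peaks, 1285 did so (57.5%, 55.5 to 59.6%), against 51.6% of all peaks and 50.9% (50.2 to 51.7%) of peaks in windows with 1 to 5 peaks. The share did not climb steadily with crowding. It was 51.7% with 1 peak per window, 51.3% with 2, 49.1% with 3, 50.8% with 4 and 51.7% with 5. Within the dense windows it was 58.8% with exactly 6 peaks (55.6 to 62.0%, 155 windows), 56.0% with 7 (52.1 to 60.0%), 62.2% with 8 (56.9 to 67.4%) and 49.3% with 9 (40.9 to 57.8%). In the few windows above that it was 66.0% with 10 peaks (10 windows), 63.6% with 11 (3 windows), 20.8% with 12 (2 windows) and 28.6% with 14 (2 windows).

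Gene ends also took up more of the sequence in dense windows. On average 16.1% of the bases of a dense window lay within 1 kb of a gene end, against 11.6% in windows with 5 peaks and 3.12% in windows with 1 peak. The share of peaks at gene ends was 3.57 times the share of bases in dense windows, 4.47 times in windows with 5 peaks and 16.6 times in windows with 1 peak. A peak counted by any 1 bp of overlap and bases were counted singly, so these ratios overstate an excess over even placement. Counted by midpoint, 51.0% of dense-window peaks lay within 1 kb of a gene end. Peaks at ends shared by 2 or more genes were 18.3% of dense-window peaks (16.7 to 19.9%) and 7.44% of the others (7.07 to 7.82%). This share already rose below the threshold. It was 4.47%, 7.12%, 8.08%, 10.0% and 12.3% in windows with 1, 2, 3, 4 and 5 peaks. An example of a shared end is the peak at Prdx5, Trmt112 and Esrra on chromosome 19, which lay within reach of an end of all 3 genes.

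Most gene-end peaks with known orientation were at 5′ ends, with a larger remainder at 3′ ends in dense windows. Of the 1285 gene-end peaks there, 960 touched only genes whose strand is listed in the promoter table. Of these, 84 lay only at a 3′ end (8.75%, 7.04 to 10.7%), against 3.48% (3.08 to 3.92%) of 7668 such peaks elsewhere. Another 113 of the 960 lay at the 5′ ends of genes on both strands, 11.8% against 9.08% elsewhere. Where a gene's start lay under a peak, the peak's midpoint was a median of 40 bp downstream of the start in dense windows (27 to 53 bp, 968 peaks, each with its nearest start) and 55 bp elsewhere (49 to 60 bp, 8106 peaks).

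**Figure D1:**
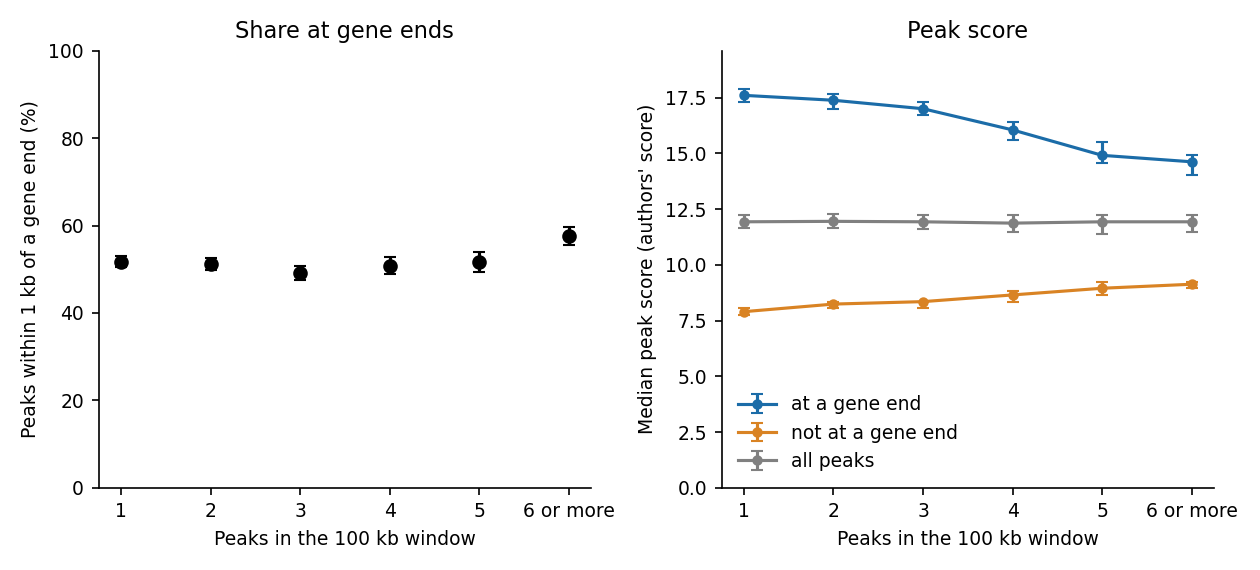
Left, share of peaks within 1 kb of a protein-coding gene end by the number of peaks in the 100 kb window, with 95% exact intervals. Right, median score (the authors' value per peak) of peaks at a gene end, of other peaks and of all peaks, with 95% intervals for the median. The median of all peaks is near 11.9 throughout, while gene-end peaks go from 17.6 to 14.6 and other peaks from 7.90 to 9.13.

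Scores of dense-window peaks had the same median as the rest of the list but a different make-up. The median score was 11.9 in dense windows (11.5 to 12.2) and 11.9 elsewhere (11.8 to 12.1). Gene-end peaks scored lower in dense windows, with a median of 14.6 (14.0 to 14.9, 1285 peaks) against 17.0 (16.8 to 17.1, 9839 peaks) elsewhere. Peaks away from gene ends scored higher there, with a median of 9.13 (8.95 to 9.25, 948 peaks) against 8.28 (8.10 to 8.35, 9474 peaks). From 1 to 5 peaks per window the gene-end median fell and the other median rose. The intervals at 1 and at 5 peaks were apart, 17.3 to 17.9 and 14.6 to 15.5 at gene ends. Away from gene ends they were 7.76 to 8.05 and 8.65 to 9.25. Not every single step can be read. Gene-end intervals overlapped between 1 and 2 peaks (17.0 to 17.7) and between 2 and 3 (16.7 to 17.3). Away from gene ends the interval was 8.05 to 8.35 with both 2 and 3 peaks. At gene ends the median score was 17.6, 17.4, 17.0, 16.1 and 14.9 in windows with 1, 2, 3, 4 and 5 peaks. Away from gene ends it was 7.90, 8.24, 8.35, 8.65 and 8.95 in the same order. Within the dense windows no further steps could be read, because the intervals of the medians overlapped. In windows with exactly 6, 7, 8, 9, 10 and 11 peaks the gene-end medians were 15.3, 14.0, 14.1, 12.9, 14.2 and 15.3. Away from gene ends they were 9.11, 8.65, 9.35, 9.55, 10.6 and 8.5. At gene ends the interval was 14.6 to 15.5 with 5 peaks and 14.6 to 16.1 with 6. Gene-end medians were lower in dense windows for ends of a single gene (14.5 against 16.9 elsewhere) and for ends shared by several genes (14.6 against 17.4).

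Widths followed the scores. Gene-end peaks had a median width of 2046 bp (2023 to 2081 bp) in dense windows and 2196 bp (2184 to 2206 bp) elsewhere. For other peaks the median widths were 1679 bp (1643 to 1706 bp) and 1623 bp (1611 to 1634 bp). A neighbour at 500 bp or less was found for 7.48% of dense-window peaks and 2.72% of the others, a difference that the choice of crowded windows favours. With such neighbours counted as 1 peak, the median scores at gene ends remained 14.6 and 17.0.

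The highest score in a dense window was 36.7, at the 5′ end of Pink1, a mitochondrial kinase that marks damaged mitochondria for removal, at chr4:138325076-138326902. The next highest, 34.9, was away from any protein-coding gene end. It lay between genes at chr17:23698744-23700809, with its midpoint 4832 bp from the nearest such end. Naglu, which encodes a lysosomal enzyme that degrades heparan sulfate, followed with 32.6. A peak shared by Izumo1, needed on sperm for fusion with the egg, and Rasip1, a Ras-interacting protein of endothelial cells, scored 32.2. Pdxk, the kinase that activates vitamin B6, had 31.9 and Pithd1 had 31.4. The shared peak of Rfng, a fringe glycosyltransferase that modifies Notch receptors, and Gps1, a subunit of the COP9 signalosome, had 31.3. Dvl1, a transducer of Wnt signals, had 31.0 and Hdgf, a growth factor that binds heparin, had 30.7. These 8 gene-end peaks all lay in windows with 6 or 8 peaks. Such windows held 547 and 214 of the 1285 dense-window gene-end peaks, so 8 peaks cannot show how score relates to crowding.

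Of the 5 highest scores away from gene ends, named after their values were seen, 4 were inside genes. After the intergenic peak on chromosome 17, the highest was 30.7 inside Unc13b, which primes synaptic vesicles for release. Then came 29.8 inside Grin2d, an NMDA receptor subunit, and 29.5 inside Dgkz, a diacylglycerol kinase. These 3 peaks lay within 1 kb of a start that RefSeq lists inside the gene. The fifth, with a score of 29.2, lay inside Pop5, a subunit of RNase P, with its midpoint 2514 bp from the gene's nearest end and no listed start in reach. The 5 lowest scores in dense windows, 4.18 to 4.47, were all away from gene ends, and 1 of them lay inside Sbk3, a predicted protein kinase. The widest peak was 4851 bp inside Zfp217, a zinc finger gene, followed by 4785 bp at Gng3 and Bscl2, 4767 bp at Junb, 4751 bp at Car11 and Dbp, and 4553 bp at Crb2. Dbp is a circadian transcription factor and Crb2 a polarity protein of neuroepithelium.

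Of the 948 dense-window peaks away from gene ends, 405 (42.7%, 39.5 to 45.9%) had their midpoint inside a protein-coding gene, against 39.1% (38.1 to 40.0%) elsewhere. A listed start inside a gene was within reach of 12.1% of them, against 9.99% elsewhere. An end of a long non-coding RNA gene was within reach of 15.4% (13.2 to 17.9%), against 14.1% elsewhere (13.4 to 14.8%). None of these features, nor a tRNA gene, was found at 396 of the 948 peaks (41.8%), against 50.1% elsewhere. The median distance from the midpoint to the nearest gene end was 8745 bp in dense windows and 27022 bp elsewhere, and 69.2% and 87.6% of these peaks were over 5 kb away.

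Windows differed widely in where their peaks lay. In 29 of the 321 every peak was at a gene end, and in 17 none was. At most 1 in 3 peaks was at a gene end in 83 windows (25.9%), and at least 2 in 3 were in 158 windows (49.2%). The 17 windows without a gene-end peak held 124 peaks with a median score of 8.33 (7.76 to 8.95). In these 17, 9 held no end of a protein-coding gene, though such a gene may span them, and 42 long non-coding RNA genes were annotated. The 29 windows with every peak at a gene end held 191 peaks with a median score of 14.6 (13.4 to 15.9) and a median of 9 protein-coding genes. Gene-end peaks had the higher median score in windows of every number of peaks from 1 to 5 and in dense windows.

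**Figure D2:**
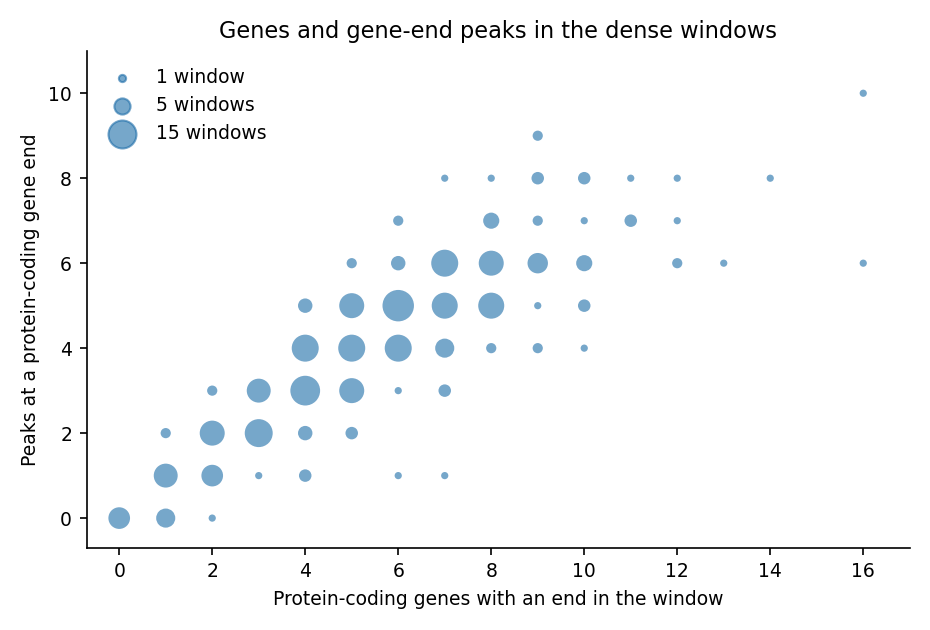
Number of peaks at a protein-coding gene end (vertical) against the number of protein-coding genes with an end in the window (horizontal) for the 321 dense windows, with the area of each point giving the number of windows. Windows with 0 to 2 genes have 0 to 3 such peaks, and the windows with 10 and 6 gene-end peaks at the far right each have 16 genes.

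**Figure D3:**
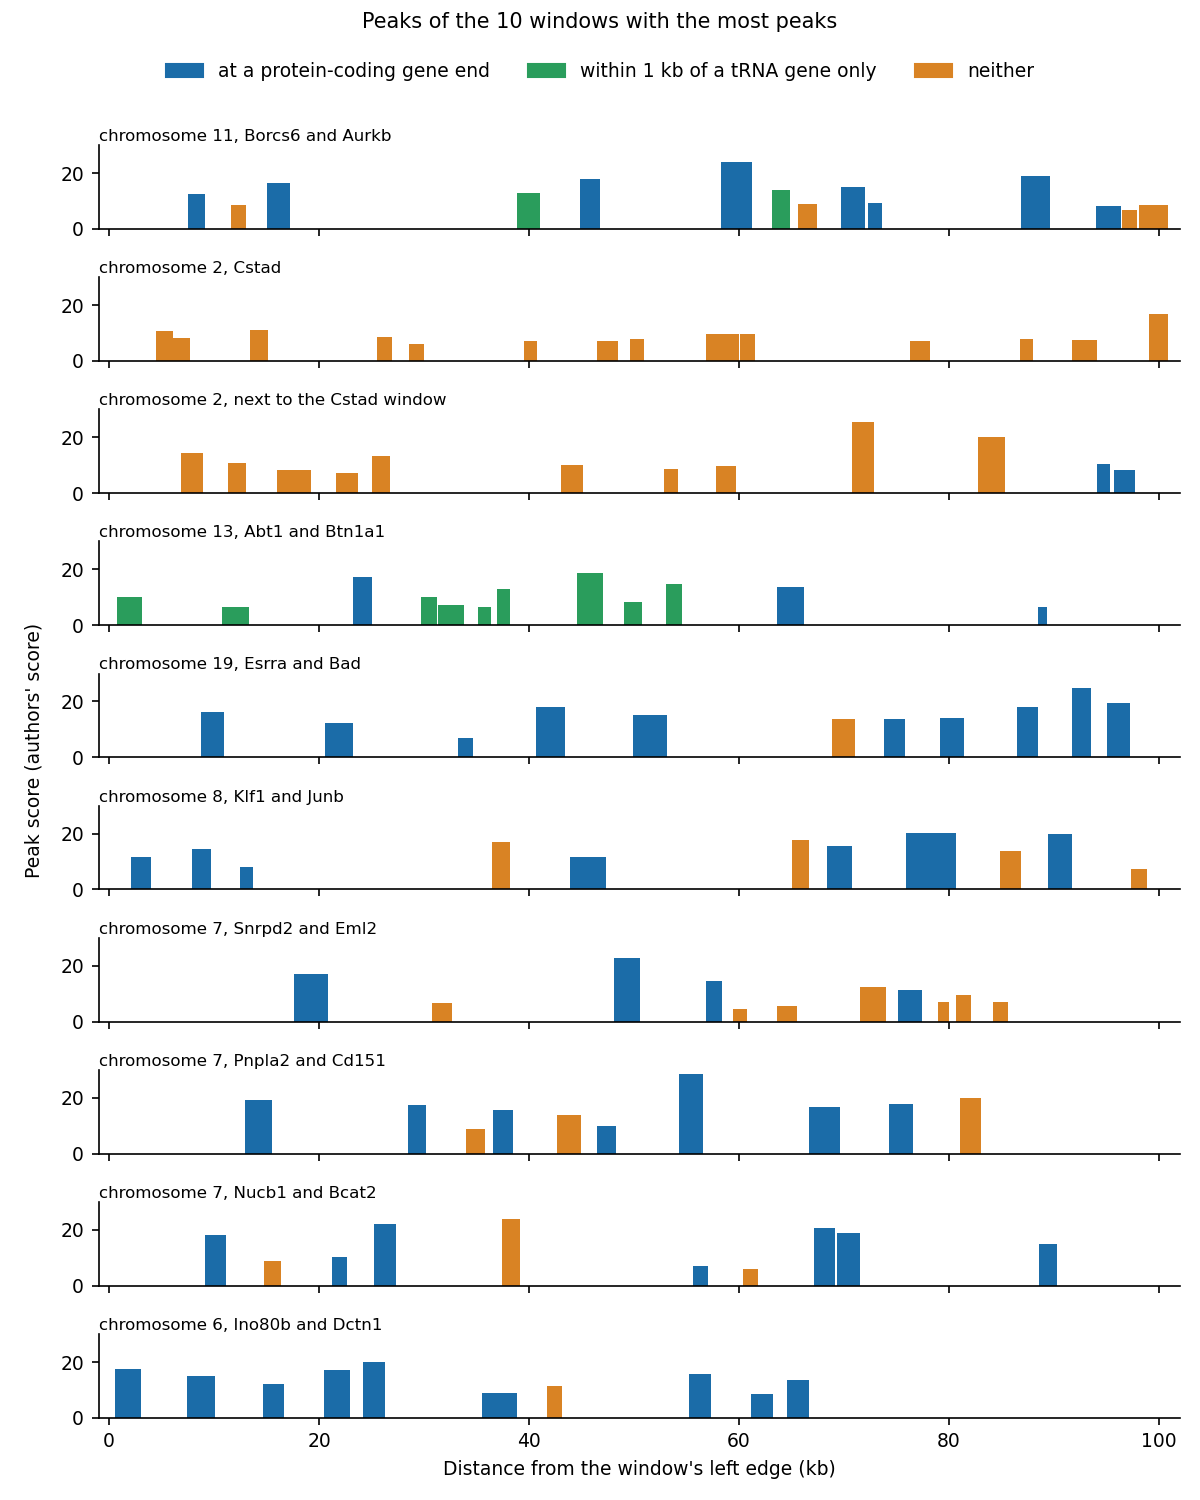
Peaks of the 10 windows with the most peaks, drawn as bars at their distance in kb from the window's left edge, with the bar's width the peak's width and its height the authors' score. Blue bars are at a protein-coding gene end, green bars are within 1 kb of a tRNA gene only, and orange bars are neither. The Cstad window on chromosome 2 has 14 orange bars and no blue one.

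The first window by number of peaks, with ties broken by summed score, was chr11:69000001-69100000, with 14 peaks, 8 of them at gene ends. All 7 of its protein-coding genes had a gene-end peak. Borcs6 had the highest with a score of 24.1, followed by Vamp2, the synaptic vesicle SNARE protein, with 18.8. Aurkb, a mitotic kinase, had 17.9 and Ctc1, a telomere maintenance factor, had 16.5. Tmem107, a protein of the ciliary transition zone, had 14.9 at one peak and 9.25 at another. Pfas, an enzyme of purine synthesis, had 12.55, and the lowest was 8.34 at the 5′ end of the clock gene Per1. The gene-end peaks thus spread from 8.34 to 24.1 within 100 kb. Away from gene ends the 6 peaks scored 6.86 to 14.0, and 2 of them lay within 1 kb of some of the 11 tRNA genes of the window.

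The other window with 14 peaks, chr2:30600001-30700000, had none at a protein-coding gene end. Its only protein-coding gene was Cstad, whose gene-end peak of 17.9 lay in the preceding window, and 5 of its peaks were at ends of its 4 long non-coding RNA genes. Scores ran from 5.97 to 16.7 with a median of 8.20. The adjoining window chr2:30700001-30800000 held 12 peaks, 2 of them at the ends of a gene known by a clone name and 4 at ends of long non-coding RNA genes. Its highest peaks, 25.6 and 20.0, were both at long non-coding RNA gene ends. The 2 windows belonged to a run of 5 adjacent dense windows, chr2:30500001-31000000, with 45 peaks, 10 of them at gene ends (22.2%).

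The window chr13:23400001-23500000 held 12 peaks, 3 protein-coding genes and 22 tRNA genes. Of its 12 peaks, 11 lay within 1 kb of a tRNA gene. Abt1 had 17.3 at its 5′ end, Btn1a1, a protein of the milk fat globule, had 13.7, and Btn2a2, of the same butyrophilin family, had 6.56. The highest peak, 18.8, was near a tRNA gene and an end of a long non-coding RNA gene and at no protein-coding gene end.

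In chr19:6900001-7000000, 10 of 11 peaks were at gene ends and 15 of 16 protein-coding genes had one. The peak shared by Dnajc4 and Nudt22 scored highest, 24.8, and that of Nudt22 and Trpt1 had 19.4. Gpr137 and Bad, a pro-apoptotic member of the BCL2 family, shared a peak of 17.9. Esrra, an orphan nuclear receptor of energy metabolism, had 16.4 at the end it shares with Trmt112 and Prdx5, and 12.4 at the other, shared with Catsperz. Kcnk4, a potassium channel, had the lowest, 6.99. Fermt3, which encodes an integrin activator of blood cells, was the gene without a gene-end peak.

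In chr8:84900001-85000000, 7 of 11 peaks were at gene ends and all 8 protein-coding genes had one. Junb had 20.3 and Hook2, which links cargo to microtubules, had 19.7. Rnaseh2a, a subunit of an enzyme that removes RNA from DNA, and Prdx2, a peroxidase, shared a peak of 15.5. Dnase2a, the lysosomal DNase, had 14.3. Klf1, the erythroid transcription factor, had 11.8, above the 8.05 of the peak shared by Dnase2a and Mast1. Away from gene ends, a peak of 17.6 lay inside Rnaseh2a and one of 17.0 inside Mast1, above 5 of the 7 gene-end peaks.

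In chr7:19100001-19200000, 4 of 11 peaks were at gene ends and all 6 protein-coding genes had one. Snrpd2, a core spliceosomal protein, and Qpctl shared 22.9, and Bhmg1 and Fbxo46 shared 17.2. Gipr, a receptor for a gut hormone, had 14.6, and Eml2, a microtubule-binding protein, had 11.3. Inside Eml2 lay 3 peaks of 6.86, 9.55 and 6.86, and inside Gipr 2 of 4.47 and 5.40. All of these scored below the gene-end peaks of the window.

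In chr7:141400001-141500000, 7 of 10 peaks were at gene ends and all 12 protein-coding genes had one. Pnpla2, the lipase that starts the breakdown of stored triglyceride, had 28.6, the highest score in the 10 windows with the most peaks. Gatd1 had 19.4. Polr2l, a subunit of the RNA polymerases, and Tspan4 shared 17.7, and Cend1, which promotes exit of neuronal precursors from the cell cycle, shared 17.4 with Slc25a22, a mitochondrial glutamate carrier. Cd151, a tetraspanin, and Cracr2b shared 16.6. The ribosomal protein gene Rplp2 shared the lowest, 9.81, with Pidd1, a death domain protein of the p53 response. Inside Tspan4 a peak of 19.9 was higher than 6 of the 7 gene-end peaks.

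In chr7:45500001-45600000, 7 of 10 peaks were at gene ends and 5 of 6 protein-coding genes had one. Ppp1r15a, which restores translation after stress, shared 22.1 with Plekha4 and had 10.4 at its other end. Bcat2, an aminotransferase of branched-chain amino acids, had 20.6 shared with Hsd17b14, 18.8 at its 5′ end and 14.9 at its other end. Nucb1, a calcium-binding Golgi protein, had 18.2. The highest score, 23.9, was inside Plekha4 and at no gene end. Tulp2 was the gene without a gene-end peak, and a peak of 8.95 inside it began at 45514767, just outside the 1 kb around its listed start.

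In chr6:83100001-83200000, 9 of 10 peaks were at gene ends and all 9 protein-coding genes had one. Ino80b, a subunit of the INO80 remodelling complex, had 19.9 and shared 17.3 with Wbp1. Ccdc142 had 17.7 and shared 15.0 with Mrpl53, a mitochondrial ribosomal protein gene. Wdr54 had 15.8, Dctn1, the largest subunit of dynactin, had 13.7, and Mogs, a glucosidase of the endoplasmic reticulum, had 12.1. Rtkn had 9.04 at its end and 11.5 inside.

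Of the windows with no peak at a gene end, those ranked next after the Cstad window were on chromosomes 1 and 13. In chr1:86400001-86500000, 9 peaks scored 6.56 to 16.9, 4 of them at long non-coding RNA gene ends, and the only protein-coding gene, Tex44, a testis-expressed gene, had no gene-end peak. In chr13:21200001-21300000, all 8 peaks lay within 1 kb of one of 13 tRNA genes and scored 6.38 to 18.8. Gpx5 and Gpx6, glutathione peroxidases of the epididymis and the olfactory epithelium, had an end in that window and no gene-end peak.

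Among windows with every peak at a gene end, the 3 ranked first held 8 peaks each. In chr9:44300001-44400000 scores ran from 8.95 to 24.2, and all 8 protein-coding genes had a peak. Hinfp, a regulator of histone H4 genes, had 24.2 and Slc37a4, the glucose-6-phosphate transporter, had 22.7. Hyou1, a chaperone of the endoplasmic reticulum, had 20.6. H2ax, the histone variant phosphorylated at DNA breaks, had the lowest peak, 8.95, within reach of one of its ends. In chr8:105200001-105300000 scores ran from 8.65 at Tradd to 24.5, and E2f4, a repressive E2F factor, shared a peak of 15.9 with Exoc3l. In chr10:79900001-80000000 they ran from 7.65 at Grin3b, an NMDA receptor subunit, to 22.6 at R3hdm4 and Kiss1r, and Arid3a, a DNA-binding protein, had 22.1.

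Dense windows were spread unevenly over the chromosomes. Chromosome 7 had 44 of the 321, or 3.09% of its windows between the first and last gene, and 21.1% of its peaks were in them. Chromosome 11 had 35 (2.94%) and chromosome 19 had 16 (2.74%), against 1.21% over all chromosomes. Chromosome X had 2 of 1677 windows (0.119%), and chromosome Y had none with 2 peaks in all. The 3 autosomes with the highest share of dense windows were also those with the most protein-coding genes per window, 1.42 on chromosome 7, 1.35 on 11 and 1.21 on 19. Chromosome 15 did not follow this order, with 21 dense windows (2.08%) at 0.767 genes per window. The share of dense-window peaks at gene ends was 75.9% on chromosome 19, 39.6% on chromosome 2 and 11.6% on chromosome 12, where 43 peaks lay in 6 windows.

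Many dense windows adjoined another. Of the 321, 135 stood in runs of 2 or more, and 186 stood alone. The longest runs had 6 windows. On chr7:45300001-45900000, 46 peaks lay among 42 protein-coding genes, 33 of the peaks at gene ends (71.7%). This stretch holds Ruvbl2, the apoptosis regulator Bax, the ferritin light chain gene Ftl1 and Fgf21, a metabolic hormone. On chr10:80900001-81500000, 40 peaks lay among 36 genes, 29 of them at gene ends (72.5%). It holds the lamin gene Lmnb2, the stress gene Gadd45b, the translation elongation factor gene Eef2 and Map2k2, a kinase of the ERK pathway. In the run of 5 windows on chromosome 2 the share was 22.2%.

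Most genes of the dense windows had a peak at an end, which choosing windows by their peaks favours. Of the 1707 protein-coding genes, 1491 had one (87.3%, 85.7 to 88.9%), against 55.4% of all protein-coding genes and 52.7% of the others. The best score per gene had a median of 15.8 (15.4 to 16.1) in dense windows and 17.3 (17.3 to 17.6) elsewhere. Genes with predicted or clone names were 53 of the 1707, and 38 of them had a gene-end peak.

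Gene families were placed in dense windows to differing degrees, read against the background of 7.84% of protein-coding genes and given without a test. Of 76 cytosolic ribosomal protein genes, 16 had an end in a dense window (21.1%), and all 16 had a gene-end peak, with a median best score of 10.9. Rps16 had 20.3, Rpl26 had 20.0, Rpl29 had 15.8 and Rps27 had 15.2. Of 78 mitochondrial ribosomal protein genes, 15 did (19.2%), all with a peak and a median of 16.7. Mrpl34 had 22.7, Mrpl38 had 20.8, Mrpl58 had 20.0 and Mrpl43 had 18.8. Over all dense-window genes with a peak the median was 15.8, above that of the cytosolic set and below that of the mitochondrial set. Over the whole genome the medians were 11.9 for the cytosolic and 18.2 for the mitochondrial family, so this order was not particular to dense windows. A gene-end peak was listed for 86.8% and 92.3% of the genes of these families.

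Factors that handle H2AZ itself were 4 of 19 (21.1%). Anp32e, the chaperone that removes it, had a best gene-end score of 24.8. Znhit1, a subunit of SRCAP, had 20.6, the TIP60 acetyltransferase gene Kat5 had 18.8, and Ruvbl2, an ATPase of several remodelling complexes, had 17.3. Over the whole genome all 19 of these genes had a gene-end peak, with a median best score of 17.3, so having one was not particular to dense windows. Cell cycle genes were 7 of 32 (21.9%), all with a peak, against 87.5% of the 32 over the whole genome. The 7 included Cdk2 with 18.6, E2f2 with 18.5, Aurkb with 17.9 and the cyclin gene Ccnd3 with 17.6. Counts of this size leave the shares of both lists loosely known.

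Rab GTPase genes, which direct vesicle traffic, were 8 of 59 (13.6%), 7 of them with a peak. Rab3d had 21.5 and Rab25 had none. RNA polymerase subunit genes were 4 of 28 (14.3%), with Polr3gl at 20.3, and complex I genes of the respiratory chain were 4 of 37 (10.8%), with Ndufs8 at 18.8. Zfp zinc finger genes stood near the background with 34 of 394 (8.63%), of which 32 had a peak, and Zfp324 was the highest at 30.1. Solute carrier genes also did, with 29 of 364 (7.97%), 25 of them with a peak, and Slc25a42 was the highest at 29.5. Proteasome genes were 3 of 39 (7.69%). Psmd2 had 13.25, and the thymic subunit gene Psmb11 had no peak. Over the whole genome a gene-end peak was listed for 89.8% of the Rab, 78.4% of the Zfp and 58.5% of the solute carrier genes.

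Other families form large gene clusters. None of 39 Hox genes, 57 clustered protocadherin genes or 53 keratin genes had an end in a dense window. Of 1109 olfactory receptor genes 1 did, Olfr1358, and it had no gene-end peak. Of 63 replication-dependent histone genes 5 did (7.94%), near the background of 7.84%. H2ac12 and H2bc12, neighbours on chromosome 13, shared a peak of 7.16, and H4c9, H2ac11 and H2bc11 had none. Over the whole genome a gene-end peak was listed for 22 of the 63 histone genes (34.9%), with a median best score of 8.05. Histone and tRNA genes occur as near-identical copies, and how reads were placed among such copies was not examined.

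The lists of cell type markers are short, so each share can be read against the background of 7.84% only loosely. Of 10 radial glia and progenitor markers 1 was there, Nes, the neural stem cell filament nestin, with 10.4. Of 8 neuronal markers 1 was, Elavl3, a neuronal RNA-binding protein, with 10.7. Of 5 erythroid markers 1 was, Klf1, while none of 5 endothelial and 6 microglial markers was. Over the whole genome a gene-end peak was listed for 7 of the 10 progenitor, 4 of the 8 neuronal, 2 of the 5 endothelial, 1 of the 5 erythroid and 1 of the 6 microglial markers, against 55.4% of all protein-coding genes. A peak at a gene is not a measure of its transcription, so these counts do not check the labelled cell type.

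tRNA genes were clustered in some dense windows. Of 403 tRNA genes in the table, 109 lay in dense windows. A peak within 1 kb was found for 80 of the 109 (73.4%), against 48.6% of all tRNA genes and 116 of the 294 elsewhere (39.5%), an order that choosing windows by their peaks favours. Counted by peaks, 48 dense-window peaks in 17 windows were within 1 kb of a tRNA gene (2.15%), against 0.599% of all peaks. Of the 48, 28 were on chromosome 13, and 38 were at no protein-coding gene end. The scores of these 38 had a median of 10.2 (8.54 to 12.9; quartiles 8.13 and 14.5), against 9.09 (8.95 to 9.25) for the other 910 dense-window peaks away from gene ends. Outside dense windows the 55 peaks of this kind had a median of 12.23 (11.04 to 14.32). This interval overlapped that of the 38, so no order between them can be read. Without the peaks near tRNA genes there were 311 dense windows, an alternative added after seeing the data.

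Promoters under peaks in dense windows were CpG-rich, like those under peaks elsewhere, and promoters without a peak were CpG-poor. The RefSeq promoter table had an entry for 17491 of the 21770 protein-coding genes (80.3%) and for 1361 of the 1707 in dense windows. The CpG ratio, observed over that given by the base composition, had a median of 0.721 (0.709 to 0.736, 1238 promoters) where a dense-window start lay under a peak. It was 0.771 (0.766 to 0.778, 9923 promoters) for starts under a peak elsewhere. In dense windows without a peak over the start it was 0.266 (0.240 to 0.298, 340 promoters), and elsewhere without a peak 0.227 (0.221 to 0.233, 9761 promoters). A ratio of at least 0.6 with a GC content of at least 50% was met by 68.2% of the first set, 71.2% of the second, 13.8% of the third and 16.8% of the fourth, and by 45.1% of all 21262 promoters. GC content itself differed less, with a median of 60.7% under a peak and 55.7% without one in dense windows, against 62.0% and 49.0% elsewhere. The printed promoters span this range, from a ratio of 0.850 in Borcs6 and 0.829 in Abt1 to 0.0588 in Tulp2.

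**Figure D4:**
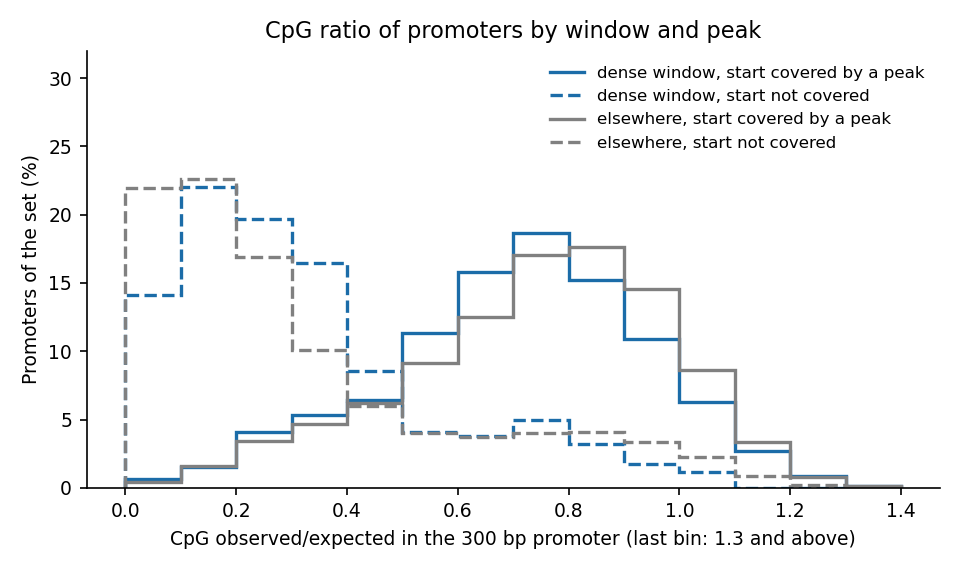
Distribution of the CpG observed/expected ratio in promoters of 300 bp (horizontal, bins of 0.1) as a percentage of the promoters in each set (vertical). Solid lines are starts covered by a peak and dashed lines starts not covered, blue in dense windows and grey elsewhere. The medians of both covered sets, 0.721 and 0.771, lie right of the peak of both dashed lines, which is between 0.1 and 0.2.

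Short motifs were searched on both strands of these promoters, and overlapping matches of different motifs were each counted. The GC box GGGCGG was in 67.9% of covered dense-window promoters (65.2 to 70.4%), 67.5% of covered promoters elsewhere, 36.8% and 22.1% of those not covered, and 46.2% of all. The ETS-type motif CCGGAAG was in 19.6% (17.4 to 22.0%) and 17.5% of covered promoters, 4.71% and 4.76% of those not covered, and 11.6% of all. The TATA motif TATAAA had the opposite order, with 6.46% and 5.97% of covered promoters, 10.3% and 20.2% of those not covered, and 12.6% of all. CCAAT differed little, from 35.9% to 38.7% over the same 4 sets. In the same order, CACGTG was in 10.3% and 10.3% of covered and 4.71% and 5.10% of other promoters (7.84% of all). For GCATGCGC these shares were 6.30%, 5.17%, 1.18% and 1.56% (3.51% of all), and for AAGATGGC 4.60%, 4.35%, 2.65% and 1.55% (3.05%). TGACGTCA had 3.31%, 3.22%, 2.94% and 1.07% (2.23%), so in dense windows it differed little with cover by a peak. Of the printed promoters, Borcs6, Abt1 and Dnajc4 held GGGCGG and CCAAT, and Junb and Tulp2 held TATAAA and CCAAT. A match describes these letters and is not evidence that a factor bound there.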

How the data were processed

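The deposited values were 1 peak list without a header, giving for each peak a chromosome, start, end, name and score. The score is the authors' deposited value per peak, and the deposited list does not name what it measures, so it was used only to rank and describe peaks within the list. Start and end, deposited by the authors counted from 0, are printed counted from 1. Peak names carry the name MACS, per the deposited file. Its settings and its control are not given in the sources used. CASAVA 1.4, Bowtie2 2, FastQC and the build mm9 are named per the submitters' processing notes. Positions were read as GRCm38, since 51.6% of peaks lay at gene ends of GRCm38.p6 as listed and 12.0% and 12.2% when shifted by 10 kb either way. The names run to 32646 and 21592 peaks are listed (66.1%), so a gene or window without a listed peak may have had one in the longer list. The 46 peaks numbered after the last peak of chromosome Y were left out.

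Genes were those of RefSeq (GRCm38.p6), 21770 of them protein-coding, and promoter sequences came from the RefSeq table of the same build. Strand was known only for genes in that table. Promoters of chromosome 18 were not used here. Windows were compared by counts, shares and medians, with no test. Windows and genes were named by rule. The rule takes the 10 windows with the most peaks, with their peaks and gene-end genes, the 10 highest-scoring, 5 lowest-scoring and 5 widest dense-window peaks, and the 3 windows with the fewest and the 3 with the most peaks at gene ends. It also takes the longest runs and up to 4 members of each gene list. The 5 highest-scoring peaks away from gene ends and the shorter run on chromosome 2 were named after their values were seen. The members, lists and rules were chosen with earlier results of these data known. Alternatives moved the windows, the peak minimum, the score limit, the merging of close peaks and the definition of a gene end. Python 3.11.15 with numpy 2.4.6, pandas 2.3.3, scipy 1.17.1 and matplotlib 3.10.9 was used. On simulated data with 400 genes, 200 of 200 planted gene-end peaks were found, and 0 window counts differed from a direct count.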

Additional observations from a re-analysis of the deposited data

How the results depend on the processing

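With at least 5 peaks per window there were 678 dense windows and 4018 peaks, with 54.9% of the peaks at gene ends and 83.3% of the genes with a gene-end peak. With at least 7 there were 166 windows and 1303 peaks. With only peaks scoring at or above the list's median there were 40 windows and 259 peaks with a median score of 17.0, 81.9% of them at gene ends (78.9% of all peaks so chosen), and 82.4% of the genes had a peak (44.4% of all genes). The share of peaks at gene ends was 55.0% with 500 bp, 62.7% with 2 kb, 72.9% with 5 kb, 66.7% with all annotated genes and 51.0% with the peak midpoint in place of overlap, against 50.1%, 54.3%, 59.8%, 60.0% and 47.4% of all peaks. The share of dense-window genes with a peak was 84.5%, 90.6%, 95.5%, 77.2% and 79.0% in the same order, against 54.0%, 57.3%, 60.8%, 32.1% and 51.1% of all genes. Each of these settings changes the definition of a dense window, a listed peak or a gene end. The other alternatives (windows started 50 kb later, peaks 500 bp or less apart counted as 1, out-of-order peaks kept, and peaks near tRNA genes left out) moved the counts by less than 1.5 times and the other values by less than their 95% intervals, with 297 to 356 windows. The difference in median score between dense windows and elsewhere ran from −2.82 to −2.23 at gene ends and from 0.60 to 0.99 away from them over the settings run, which did not include the limit to higher scores. No paired analysis was possible because each group had 1 library. Read depth is unknown, and with 1 library no value has a replicate.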
